A study of Mus musculus with 2 samples.

Results

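The interferon-stimulated genes described here were 39 of the 27998 genes in the deposited tables, chosen by symbol and present in both tables. They were split into 31 type I-like genes, led by Isg15 and the Ifit genes, and 8 gamma-like genes, namely Cxcl9, Cxcl10, Gbp2, Gbp3, Gbp5, Gbp7, Ifi47 and Irf1. The series held 2 libraries of droplet RNA sequencing from alveolar bone, the bone that carries the teeth, of male C57/B6 J mice aged 8 weeks. In the OTM mice (orthodontic tooth movement, labelled as the case) the left first molar had been pulled toward the incisors by a NiTi coil spring for a week, and the control mice carried no force. Bone was digested with collagenase, cells were stained for F4/80 and CD11b and sorted, there was 1 library per condition, and although the study divided its mice between both groups, how many were pooled into each library was not given in the sources used here. The question put to the data was how the interferon program stood in neutrophils and in monocytes or macrophages of the control and OTM bone.

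Interferons are secreted proteins that make cells switch on a shared set of defence genes. Type I interferons signal through a receptor that activates a complex with STAT2 and IRF9, which binds the interferon-stimulated response element (ISRE), a sequence in front of genes such as Isg15, Ifit1 and Rsad2. Interferon gamma acts through another receptor and the gamma-activated site (GAS), and it is known for inducing Cxcl9, the Gbp genes and Irf1 in macrophages. The separation is not strict, since Cxcl10, Gbp2 and Irf1 also respond to type I interferon or to inflammatory signals.

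Both kinds of site were looked for in the 250 bases before the start of each member, and the windows below are shown because they carry the sites of the genes on which the results turn. The ISRE was searched as GAAANNGAAA and the GAS as TTCNNNGAA, on both strands (the GAS reads the same on each), in RefSeq promoters of GRCm38.p6, in which 32 of the 39 members were matched. An ISRE was found in 17 of these 32 members (53.1%), against 3.46% of 27025 genes, and a GAS in 6 (18.8%), against 8.13%. Among type I-like members, 12 of 24 had an ISRE and 3 a GAS. Of the 8 gamma-like members, 5 had an ISRE and 3 a GAS. In the sequences, which read 5′ to 3′ on the strand of the gene, capitals mark the matched letters, and overlapping matches run together.
Isg15 (chr4:156200855-156200916, minus strand): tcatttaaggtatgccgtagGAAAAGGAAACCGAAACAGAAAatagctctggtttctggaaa
Ifit1 (chr19:34640765-34640833, plus strand): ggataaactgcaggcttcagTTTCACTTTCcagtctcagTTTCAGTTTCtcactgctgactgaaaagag
Ifit3 (chr19:34583353-34583436, plus strand): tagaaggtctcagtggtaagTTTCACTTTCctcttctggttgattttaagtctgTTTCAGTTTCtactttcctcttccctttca
Ifit3b (chr19:34607749-34607832, plus strand): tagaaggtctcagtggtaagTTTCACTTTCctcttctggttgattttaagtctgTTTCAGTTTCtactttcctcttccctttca
Cxcl10 (chr5:92349073-92349122, minus strand): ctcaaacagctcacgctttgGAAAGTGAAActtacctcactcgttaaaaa
Gbp2 (chr3:142620584-142620633, plus strand): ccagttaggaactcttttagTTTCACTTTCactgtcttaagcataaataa
Gbp7 (chr3:142530210-142530312, plus strand): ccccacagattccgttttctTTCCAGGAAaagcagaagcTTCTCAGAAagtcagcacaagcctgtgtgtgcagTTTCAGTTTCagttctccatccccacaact
Irf1 (chr11:53769904-53769952, plus strand): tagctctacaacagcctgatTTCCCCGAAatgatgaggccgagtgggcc
Isg15 had 3 overlapping ISRE matches, and Ifit1, Ifit3 and Ifit3b had 2 each. The windows of Ifit3 and Ifit3b were identical over all 84 bases. Gbp7 had 2 GAS matches and 1 ISRE, while Irf1 had a GAS and no ISRE. Among members whose windows are not shown, Ifit2 had a GAS and no ISRE, Rsad2 had an ISRE, and Gbp5 had both kinds of site. Neither kind of site was in the window of Cxcl9.

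The control library held 2863 barcodes with 14620877 UMIs (unique molecular identifiers, each tagging 1 captured RNA molecule) and the OTM library held 2058 barcodes with 16500733 UMIs, and 6 barcodes occurred in both. Filtering kept 2444 control (85.4%) and 1255 OTM cells (61.0%), and the removed barcodes were deeper, with medians of 8395 control and 9717 OTM UMIs against 3675.5 and 6053 in those kept. The cell numbers that the study states after its own filter are larger than the barcodes held here in both libraries. The cells were labelled as macrophages, but clusters with neutrophil markers made up a large share: 910 control and 433 OTM cells were neutrophil-like, and 1288 control and 776 OTM cells were monocyte- or macrophage-like. S100a8, which encodes an abundant calcium-binding protein of neutrophils, was at 169354 CPM (the gene's UMIs in all cells of the class, scaled to the UMI total of the class) in the control neutrophil-like cells and at 7859 CPM in the control monocyte- or macrophage-like cells, and Adgre1, which encodes the sorted antigen F4/80, was at 17.9 and 91.3 CPM. All levels below are such CPM values of a whole class, and ratios are OTM over control with 95% intervals. With 1 library per condition there was no test between conditions, and all intervals cover counting error only, not the spread between mice. Fewer cells with a transcript and fewer transcripts per cell cannot be told apart in these sums. The members and the listed interferon genes were left out of the clustering, and the classes were not made of the same clusters in both libraries: the largest monocyte- or macrophage-like cluster was led by Cxcl3, Mt2 and Vcan in the control (689 cells) and by Saa3, Fabp7 and Dpep2 in the OTM library (314 cells).

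The gamma-like sum was higher in OTM than in control cells of both classes, and Ifit2 and Ifit3 were lower in both, while Isg15 was slightly lower in neutrophil-like and higher in monocyte- or macrophage-like cells. In neutrophil-like cells the gamma-like sum was 256 CPM in OTM and 108 CPM in control, a ratio of 2.37 (2.06 to 2.74), and the Ifit and Isg15 sum was 353 against 431 CPM, a ratio of 0.820 (0.746 to 0.900). Monocyte- or macrophage-like cells had a gamma-like sum of 718 CPM in OTM and 411 CPM in control, a ratio of 1.74 (1.66 to 1.83), and an Ifit and Isg15 sum of 290 against 240 CPM, a ratio of 1.21 (1.13 to 1.30). Single genes moved both of these ratios: without Cxcl10, which supplied 62.3% of the OTM gamma-like UMIs, the first was 1.13, and without Isg15 the second was 0.576. The gamma-like sum without Cxcl10 still held Cxcl9, with 292 control and 8 OTM UMIs. The Gbp genes alone had a ratio of 1.59 (1.45 to 1.74) in these cells. The sum over all 31 type I-like members, of which Ifi27l2a supplied most UMIs, had ratios of 0.829 (0.803 to 0.856) in neutrophil-like and 0.889 (0.874 to 0.905) in monocyte- or macrophage-like cells. Without Ifi27l2a they were 0.918 (0.874 to 0.965) and 1.06 (1.03 to 1.10), so that in monocyte- or macrophage-like cells this gene set the side of 1.

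A member was counted as past the fold when its ratio was at least 2 or at most 1/2 and it had at least 20 UMIs over both libraries. In neutrophil-like cells 35 members had enough UMIs, and 10 of them were past the fold, against 16.3% of the 6940 genes with as many UMIs. The 6 that were higher in OTM (8.33% of all genes) were Cxcl10, Gbp2, Gbp3, Irf1, Ifi204 and Ly6a, and the 4 that were lower (8.0% of all genes) were Ifit2, Ifit3, Rsad2 and Cmpk2. In monocyte- or macrophage-like cells all 39 members had enough UMIs and 12 were past the fold, against 10.4% of 9480 genes. Of these, Oasl1, Ifih1, Cxcl10 and Gbp5 were higher (2.7% of all genes), and Ifit2, Ifit3, Ifit3b, Mx1, Cmpk2, Ddx58, Stat2 and Cxcl9 were lower (7.7%). The median log2 ratio of the members was 0.07 in neutrophil-like and -0.20 in monocyte- or macrophage-like cells, against 0.06 and -0.17 over all genes tested. TMM scaling, which sets the total by genes in the middle of the range, moved all log2 ratios by -0.10 in neutrophil-like and by 0.16 in monocyte- or macrophage-like cells. The plot of ratios by member shows that Ifit2, Ifit3, Cmpk2 and Cxcl10 were past the fold in the same direction in both classes. In neutrophil-like cells Cxcl10 was past it under 8 of 11 alternatives. Its level there lay within the counting interval of progenitor-like cells, a comparison that rests on few cells, as described below for the gamma-like genes.

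**Figure D1:**
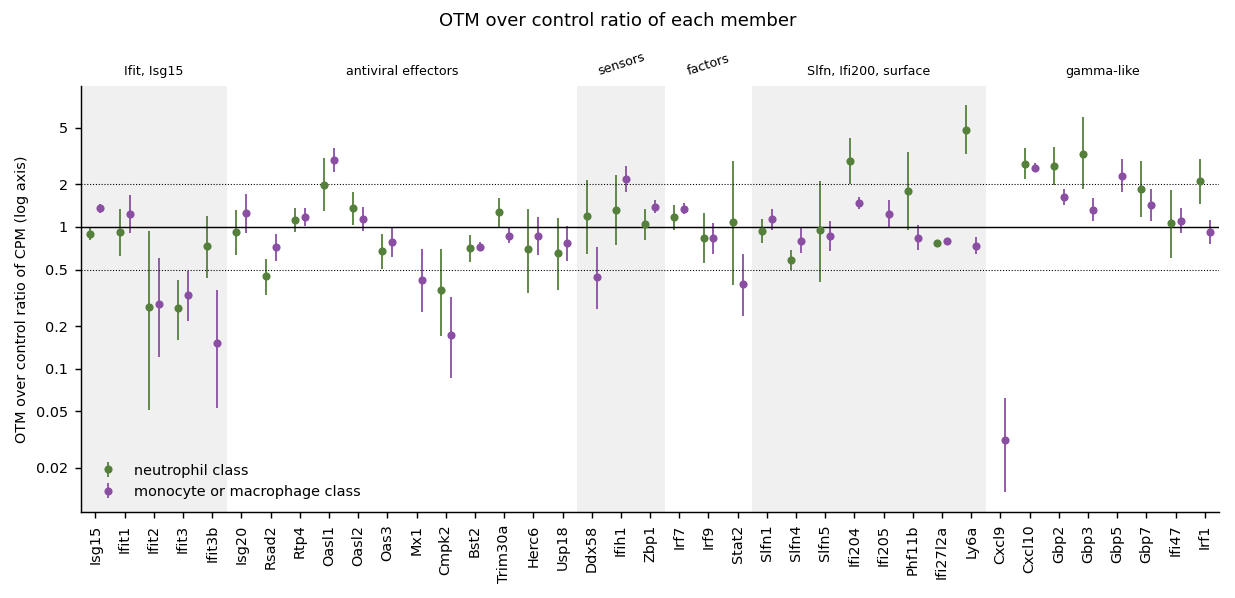
OTM over control ratio of the CPM of each member (log axis), grouped by role, in neutrophil-like (green) and monocyte- or macrophage-like cells (purple), with 95% counting intervals for members with at least 20 UMIs over both libraries. The solid line is a ratio of 1 and the dotted lines are ratios of 2 and 0.5. Cxcl9 at 0.0313 and Ifit3b at 0.153 were the lowest in monocyte- or macrophage-like cells, and Ly6a at 4.82 was the highest in neutrophil-like cells.

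Isg15 encodes a ubiquitin-like protein that is attached to other proteins in infected cells, and it lies on chromosome 4 of GRCm38 from 156199424 to 156200818. Its level in neutrophil-like cells was 339 CPM in control and 303 CPM in OTM, and in monocyte- or macrophage-like cells 196 CPM in control and 265 CPM in OTM. The ratios were 0.894 (0.806 to 0.992) and 1.35 (1.25 to 1.46), on opposite sides of 1. The Ifit genes encode proteins that bind foreign RNA, and they lie together on chromosome 19 between 34550694 and 34650009. Ifit1 was at 26.0 CPM in control and 23.9 CPM in OTM neutrophil-like cells, and at 13.6 and 16.8 CPM in monocyte- or macrophage-like cells. Its ratios of 0.921 (0.624 to 1.34) and 1.24 (0.913 to 1.67) had intervals that held 1. Its neighbour Ifit3 stood apart, with 41.9 CPM in control and 11.2 CPM in OTM neutrophil-like cells, a ratio of 0.266 (0.160 to 0.425). In monocyte- or macrophage-like cells Ifit3 was at 17.8 CPM in control and 5.90 CPM in OTM, a ratio of 0.331 (0.218 to 0.492). Ifit3b, whose upstream window shown above is the same as that of Ifit3, had 45 control and 6 OTM UMIs in monocyte- or macrophage-like cells, a ratio of 0.153 (0.0532 to 0.359), and in neutrophil-like cells its ratio of 0.731 (0.437 to 1.19) held 1. Ifit2 was rare, with 18 and 3 UMIs in control and OTM neutrophil-like cells and 36 and 9 in monocyte- or macrophage-like cells, and its ratios were 0.273 (0.0515 to 0.934) and 0.286 (0.121 to 0.605). Of the 98-base windows in the last 600 bases of Ifit3, where 3′ reads fall, 3.78% also occurred in Ifit3b.

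The same UMIs can be given as the share of Isg15 in its sum, which no scaling to library totals can move. Isg15 supplied 78.7% (76.4% to 80.8%) of the Ifit and Isg15 UMIs in control neutrophil-like cells and 85.8% (83.0% to 88.4%) in OTM. In monocyte- or macrophage-like cells its share was 81.7% (79.6% to 83.6%) in control and 91.3% (89.8% to 92.6%) in OTM. The intervals of control and OTM did not overlap in either class, and the remainder, the Ifit genes, made up less of the sum in OTM.

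**Figure D2:**
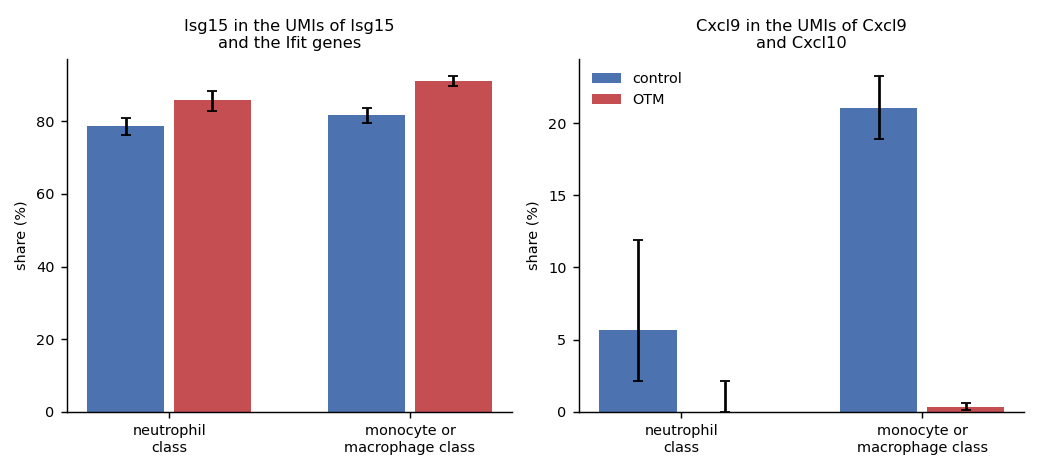
Share (%) of Isg15 in the UMIs of Isg15 and the Ifit genes (left) and of Cxcl9 in the UMIs of Cxcl9 and Cxcl10 (right), in control (blue) and OTM (red) cells of each class. Bars start at 0 and error bars are exact 95% binomial intervals. Isg15 reached 91.3% in OTM monocyte- or macrophage-like cells, and Cxcl9 was 21.0% of its pair in control and 0.319% in OTM monocyte- or macrophage-like cells.

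Among the 12 other antiviral effectors, Rsad2 encodes viperin, an enzyme that makes a chain-terminating nucleotide, and Cmpk2, a nucleotide kinase, lies beside it on chromosome 12. Rsad2 was at 73.4 CPM in control and 33.0 CPM in OTM neutrophil-like cells, a ratio of 0.449 (0.333 to 0.597). In monocyte- or macrophage-like cells it was at 33.1 and 23.8 CPM, a ratio of 0.718 (0.573 to 0.896). Cmpk2 was at 16.2 CPM in control and 5.85 CPM in OTM neutrophil-like cells, and at 12.3 and 2.15 CPM in monocyte- or macrophage-like cells. Both ratios of Cmpk2, 0.360 (0.169 to 0.701) and 0.174 (0.0862 to 0.321), were past the fold, and they stayed below 1/2 under each of the 11 alternatives tried.

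Oasl1, a member of the oligoadenylate synthetase-like family that is known to restrain Irf7 translation, had the largest OTM over control ratio of the effectors in both classes. It was at 22.3 CPM in control and 66.3 CPM in OTM monocyte- or macrophage-like cells, a ratio of 2.97 (2.44 to 3.63), and at 13.6 and 27.1 CPM in neutrophil-like cells, a ratio of 1.99 (1.30 to 3.06) just under the fold. Its neighbour Oasl2 had ratios of 1.36 (1.03 to 1.78) in neutrophil-like and 1.14 (0.944 to 1.37) in monocyte- or macrophage-like cells, and Oas3, which makes the second messenger of RNase L, had 0.673 (0.506 to 0.887) and 0.783 (0.613 to 0.996). Bst2, the tetherin that holds budding virions at the cell surface, was at 304 CPM in control and 221 CPM in OTM monocyte- or macrophage-like cells, and its ratios were 0.727 (0.677 to 0.781) there and 0.709 (0.569 to 0.879) in neutrophil-like cells. Mx1, a dynamin-like GTPase, had 62 control and 23 OTM UMIs in monocyte- or macrophage-like cells, a ratio of 0.424 (0.251 to 0.695), but only 8 and 1 UMIs in neutrophil-like cells. The remaining effectors (Isg20, Rtp4, Trim30a, Herc6 and Usp18) had ratios between 0.655 and 1.27 in neutrophil-like and between 0.769 and 1.25 in monocyte- or macrophage-like cells. For the 12 effectors together, ratios of the sum were 0.882 (0.809 to 0.961) and 0.889 (0.849 to 0.931).

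The sensors and the transcription factors of the type I response moved apart within their groups in monocyte- or macrophage-like cells. Ifih1, which encodes the RNA sensor MDA5, was at 21.6 CPM in control and 47.0 CPM in OTM, a ratio of 2.18 (1.77 to 2.70), whereas Ddx58, which encodes the related sensor RIG-I, was at 9.69 and 4.29 CPM, a ratio of 0.443 (0.264 to 0.720). Zbp1, a sensor of Z-form nucleic acids, was at 101 and 141 CPM, a ratio of 1.39 (1.25 to 1.55). Irf7, the factor that amplifies interferon production, was at 133 CPM in control and 179 CPM in OTM, a ratio of 1.35 (1.23 to 1.48). Stat2, a transcription factor of type I signalling, had 66 control and 23 OTM UMIs, a ratio of 0.399 (0.237 to 0.649), and Irf9, the DNA-binding part of its complex, had a ratio of 0.833 (0.649 to 1.07). In neutrophil-like cells none of these 6 genes was past the fold, with ratios between 0.839 and 1.32 and intervals that all held 1. The differences between classes in these genes were not tested.

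Ifi27l2a, a small mitochondrial protein gene, was the most abundant member by UMIs and supplied 58.9% of all member UMIs in control and 52.0% in OTM neutrophil-like cells. It was at 2191 CPM in control and 1689 CPM in OTM neutrophil-like cells, and at 3026 and 2417 CPM in monocyte- or macrophage-like cells. The ratios of 0.771 (0.739 to 0.804) and 0.799 (0.781 to 0.817) lay close together. Slfn4, a Schlafen gene of myeloid cells, was at 182 CPM in control and 107 CPM in OTM neutrophil-like cells, a ratio of 0.585 (0.496 to 0.689), and at 38.0 and 30.4 CPM in monocyte- or macrophage-like cells, a ratio of 0.800 (0.654 to 0.978). Slfn1 and Slfn5 had ratios between 0.867 and 1.13, and all 4 of their intervals held 1.

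Ifi204, a DNA-binding protein of the Ifi200 family, and Ly6a, the surface antigen Sca-1, stood higher in OTM neutrophil-like cells. Ifi204 was at 15.6 CPM in control and 45.2 CPM in OTM, a ratio of 2.90 (2.01 to 4.22), and at 117 and 172 CPM in monocyte- or macrophage-like cells, a ratio of 1.47 (1.34 to 1.62). Ly6a had 37 control and 109 OTM UMIs in neutrophil-like cells, a ratio of 4.82 (3.29 to 7.20), but at 85.6 and 63.1 CPM in monocyte- or macrophage-like cells, a ratio of 0.737 (0.643 to 0.844). Of the 109 OTM UMIs of Ly6a in neutrophil-like cells, 99 came from 1 cluster, in which the monocyte marker Csf1r was at 105 CPM, against 37.5 CPM in the other OTM neutrophil-like cluster. Whether monocyte RNA in these droplets took part in the Ly6a value was not tested. Phf11b had 21 control and 23 OTM UMIs in neutrophil-like cells and a ratio of 0.842 (0.688 to 1.03) in monocyte- or macrophage-like cells. The level of Ifi205 is uncertain, since 63.4% of its 98-base windows near the 3′ end also occurred in Ifi211, and its ratio in monocyte- or macrophage-like cells was 1.23 (0.977 to 1.54).

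**Figure D3:**
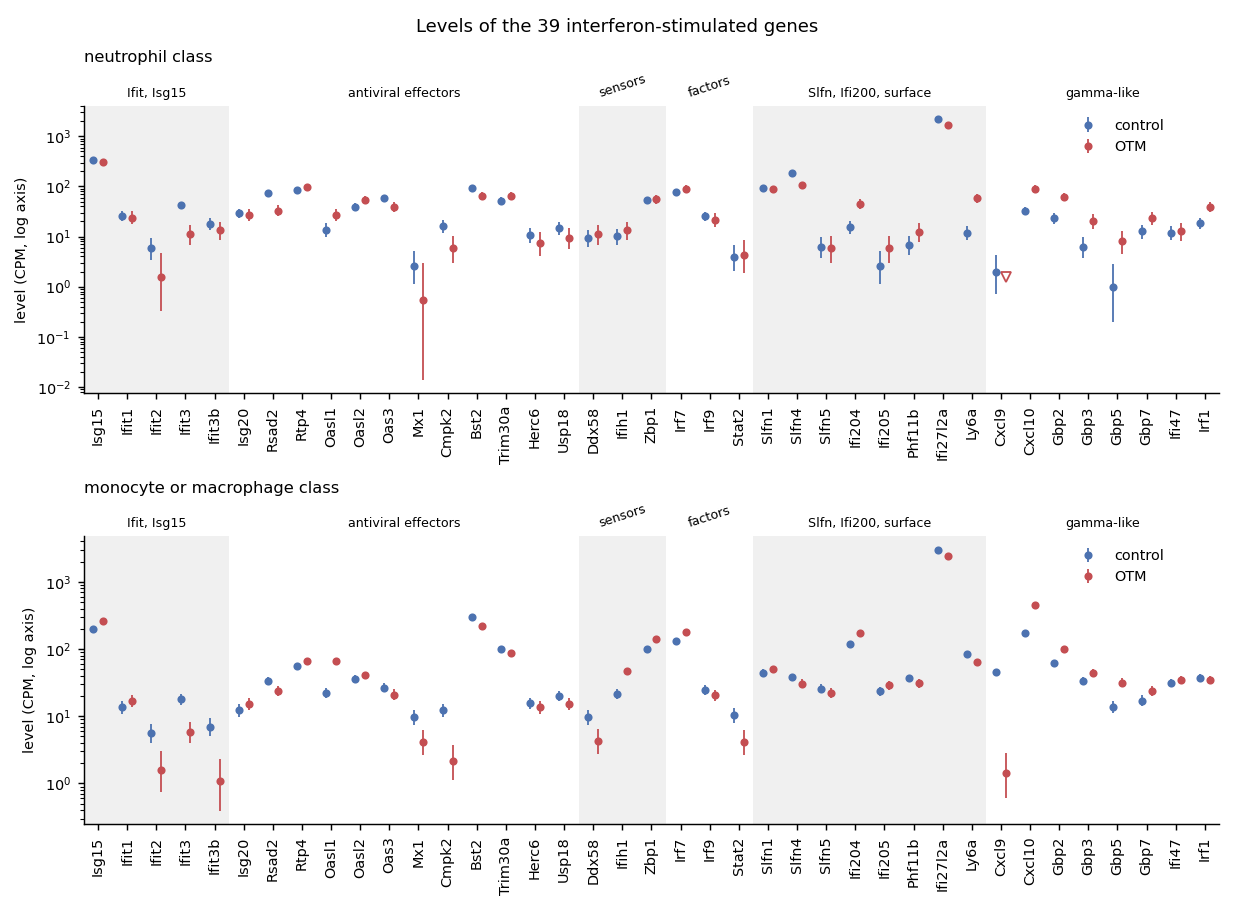
Level (CPM, log axis) of each member in control (blue) and OTM (red) cells, in neutrophil-like (top) and monocyte- or macrophage-like cells (bottom), with exact 95% Poisson intervals. The open triangle marks Cxcl9 in OTM neutrophil-like cells, where no UMI was found, at the 1.59 CPM that 3 UMIs would give. Ifi27l2a lies above the other members in all 4 groups, and Cxcl9 was at 45.6 CPM in control and 1.43 CPM in OTM monocyte- or macrophage-like cells.

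The gamma-like genes showed the most unequal pair of the set. Cxcl9 and Cxcl10 encode chemokines that bind the same receptor, CXCR3 of T cells, and lie beside each other on chromosome 5, Cxcl9 from 92321347 to 92328079 and Cxcl10 from 92346638 to 92348889. In monocyte- or macrophage-like cells Cxcl10 was at 171 CPM in control and 447 CPM in OTM, a ratio of 2.61 (2.43 to 2.81), while Cxcl9 had 292 control and 8 OTM UMIs, a ratio of 0.0313 (0.0134 to 0.0626). Of the UMIs of both genes, Cxcl9 supplied 21.0% (18.9% to 23.3%) in control and 0.319% (0.138% to 0.627%) in OTM monocyte- or macrophage-like cells. The control level of Cxcl9 came from few cells: 2.64% of the control monocyte- or macrophage-like cells held a UMI, and the 10 cells with the most UMIs held 78.1% of them. By cluster, 256 of the 292 UMIs lay in a cluster of 261 cells led by the MHC class II genes H2-Eb1, H2-Aa and H2-Ab1, at 212 CPM. The OTM cluster led by the same 3 genes held 152 cells and 1 UMI of Cxcl9, or 1.09 CPM, and its Cxcl10 level was 634 CPM against 274 CPM in the control cluster. Cxcl10 was spread more widely, with a UMI in 26.3% of control and 54.1% of OTM monocyte- or macrophage-like cells, and in 15.2% and 34.1% after each cell had been thinned to 1777 UMIs.

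Neutrophil-like cells had 6 control and 0 OTM UMIs of Cxcl9, which allows no ratio. Cxcl10 was at 32.5 CPM in control and 90.9 CPM in OTM neutrophil-like cells, a ratio of 2.80 (2.17 to 3.62). At 1777 UMIs per cell, 2.75% of control and 7.16% of OTM neutrophil-like cells held a Cxcl10 UMI, and no expression was read from this share. Of the granulocyte progenitor-like cells, 2.78% in control and 6.52% in OTM held one, but these were 1 of 36 and 3 of 46 cells. Such few cells cannot show whether the share in neutrophil-like cells stood apart. The Cxcl10 level of the progenitor-like cells, 37.2 CPM (19.2 to 65.0) in control and 70.6 CPM (44.3 to 107) in OTM, had intervals that held the level of the neutrophil-like cells. These intervals count UMIs and not cells. Of 22 OTM UMIs of Cxcl9 and Cxcl10 in progenitor-like cells, 18 came from 1 cell, as did 9 of 13 in control. Their gamma-like sum was 133 CPM in control and 112 CPM in OTM, against 108 and 256 CPM in neutrophil-like cells. S100a8 was at 37699 CPM in control and 108534 CPM in OTM progenitor-like cells, so the clusters were not alike.

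The Gbp genes encode GTPases that attack the vacuoles of intracellular microbes, and the 4 members lie in 1 stretch of chromosome 3 between 142493978 and 142638008. All 4 were higher in OTM monocyte- or macrophage-like cells, with intervals above 1. Gbp2 was at 61.4 CPM in control and 99.9 CPM in OTM, a ratio of 1.63 (1.43 to 1.86), and Gbp5 at 13.8 and 31.6 CPM, a ratio of 2.30 (1.77 to 3.01). Gbp3 and Gbp7 had ratios of 1.32 (1.10 to 1.59) and 1.42 (1.09 to 1.84). In neutrophil-like cells Gbp2 was at 23.1 CPM in control and 61.7 CPM in OTM, a ratio of 2.67 (1.97 to 3.65), Gbp3 had 19 and 38 UMIs, a ratio of 3.27 (1.84 to 6.01), and Gbp5 had only 3 and 15 UMIs. Ifi47, an immunity-related GTPase, had ratios of 1.06 (0.608 to 1.82) and 1.10 (0.903 to 1.35) in neutrophil-like and monocyte- or macrophage-like cells. Irf1, the first factor induced by interferon gamma, was at 18.5 CPM in control and 38.8 CPM in OTM neutrophil-like cells, a ratio of 2.10 (1.46 to 3.02), and at 37.3 and 34.5 CPM in monocyte- or macrophage-like cells, a ratio of 0.924 (0.760 to 1.12).

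Other values moved with the gamma-like sum of neutrophil-like cells. All 15 monocyte or macrophage markers were detected in these cells in both libraries, and their summed level was 1594 CPM in control and 4490 CPM in OTM, against 9707 and 13359 CPM in the monocyte- or macrophage-like cells themselves. Their part in the gamma-like ratio was not tested. When cells were assigned by their own marker UMIs the ratio was 1.76, and when cells were kept with at least 200 genes per cell it was 1.55, with Gbp3 at 1.01, Gbp2 at 1.52 and Cxcl10 at 1.63, and with Ifi204 at 1.73, all under the fold, while Ly6a (3.08) and Irf1 (2.21) were past it. With classes from own markers Gbp2 (1.59) and Irf1 (1.98) were under the fold.

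Within each library, the Ifit and Isg15 sum was higher in neutrophil-like cells and the gamma-like sum in monocyte- or macrophage-like cells. The ratio of monocyte- or macrophage-like over neutrophil-like cells was 0.558 (0.518 to 0.601) in control and 0.823 (0.751 to 0.902) in OTM for the Ifit and Isg15 sum, and 3.82 (3.40 to 4.29) and 2.81 (2.55 to 3.09) for the gamma-like sum. In OTM the first ratio was on the other side of 1 when cells were kept with at least 200 genes per cell (1.25). In control, 16 members were past the fold toward monocyte- or macrophage-like cells (40.3% of 9087 genes were) and 7 toward neutrophil-like cells (6.66%), namely Ifit3, Ifit3b, Isg20, Rsad2, Oas3, Slfn1 and Slfn4. In OTM, 13 of 37 members were past the fold toward monocyte- or macrophage-like cells (29.3% of 8338 genes) and 4 toward neutrophil-like cells (6.22%), namely Ifit3b, Cmpk2, Ddx58 and Slfn4. Slfn4 was 0.208 (0.178 to 0.242) times as high in monocyte- or macrophage-like as in neutrophil-like cells of the control and 0.284 (0.231 to 0.351) times in OTM. Ifi204 was 7.51 (5.61 to 10.3) times as high in control and 3.81 (3.05 to 4.82) times in OTM monocyte- or macrophage-like cells, and Bst2 3.30 (2.91 to 3.75) and 3.38 (2.81 to 4.11) times. These ratios depended on the scaling, since the median gene had a log2 ratio of 0.74 in control and 0.56 in OTM, and TMM scaling lowered all log2 ratios by 0.67 and 0.49. With TMM scaling, the sum over the 31 type I-like members was on the other side of 1 (1.27 against 0.801 in control, 1.36 against 0.970 in OTM), whereas the gamma-like sum stayed higher in monocyte- or macrophage-like cells (2.41 and 2.00).

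Across clusters, which were built in each library alone, the Ifit and Isg15 sum and the gamma-like sum ranked the clusters alike only in part. In the control neutrophil-like clusters, in the order given next, the gamma-like sums were 164, 77.2 and 50.1 CPM, the same order as the Ifit and Isg15 sums. In the OTM neutrophil-like clusters they were 248 and 261 CPM, in the opposite order. In control, the Ifit and Isg15 sum was 632 CPM in the neutrophil-like cluster led by Gm5483, BC100530 and Stfa2l1 (408 cells), 380 CPM in the one led by 5430421N21Rik, Ltf and Ly6g (420 cells) and 68.2 CPM in dividing neutrophil-like cells (82 cells), where Mki67 was at 164 CPM. In OTM, it was 458 CPM in the cluster led by Asprv1, Stfa2 and Gm5483 (231 cells) and 275 CPM in the one led by Syne1, Ly6g and Ltf (202 cells). Dividing monocyte- or macrophage-like cells also had a low Ifit and Isg15 sum, 86.3 CPM in control (156 cells) and 65.7 CPM in OTM (71 cells), but their gamma-like sum was 210 CPM in control and 694 CPM in OTM. Of that, Cxcl10 alone was at 132 CPM in control and 532 CPM in OTM dividing cells. The highest gamma-like sums were those of the MHC class II-led clusters, 830 CPM in control and 974 CPM in OTM, and of the OTM cluster led by Gm15987, Rnase6, Ifi202b and Pyhin1 (239 cells), 939 CPM. Ifi202b and Pyhin1 are themselves interferon-related genes outside the lists left out of the clustering, and whether such genes shaped that cluster was not tested.

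**Figure D4:**
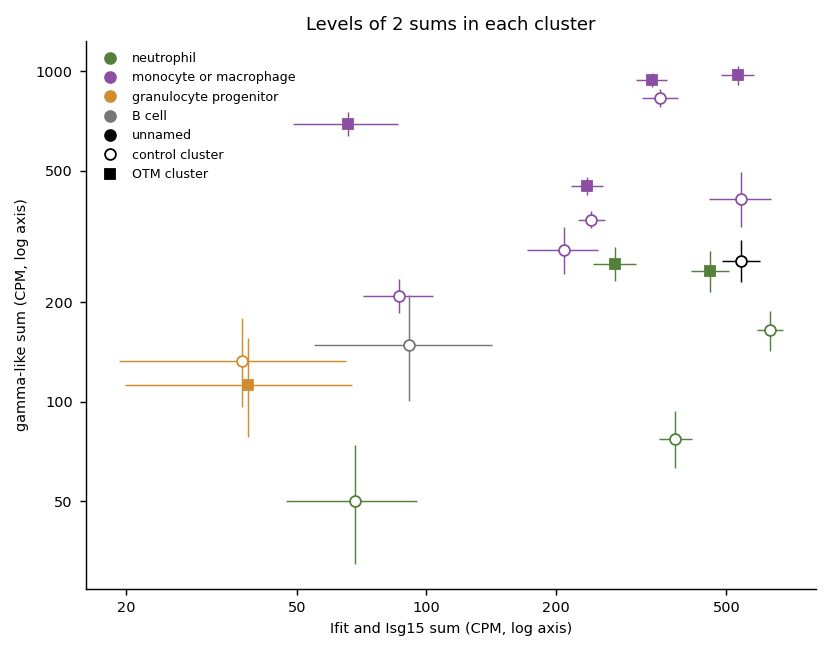
Gamma-like sum against Ifit and Isg15 sum (CPM, log axes) in the 11 control (open circles) and 7 OTM clusters (filled squares), coloured by class, with exact 95% Poisson intervals. The 2 MHC class II-led clusters and the OTM cluster with Ifi202b lie at the top, from 830 to 974 CPM of the gamma-like sum, and the granulocyte progenitor-like clusters lie at the left, at 37.2 and 38.5 CPM of the Ifit and Isg15 sum.

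Single cells showed how the sums were made up. At 1777 UMIs per cell, 30.0% of control and 30.9% of OTM neutrophil-like cells held an Ifit or Isg15 UMI (38.9% and 49.2% without thinning), and 24.3% and 32.2% of monocyte- or macrophage-like cells did (40.8% and 63.9%). In granulocyte progenitor-like cells, whose Ifit and Isg15 sum was low (37.2 CPM in control and 38.5 CPM in OTM), the thinned share was 2.78% of 36 control and 8.70% of 46 OTM cells. Cells with at least 3 such UMIs, called Ifit and Isg15-high here, were 11.3% (9.33% to 13.6%) of control and 8.31% (5.89% to 11.3%) of OTM neutrophil-like cells, and 3.80% (2.83% to 5.00%) and 3.74% (2.52% to 5.32%) of monocyte- or macrophage-like cells, so that the intervals of control and OTM overlapped in both classes. The limit of 3 UMIs cut through a range and not between separate groups: among control neutrophil-like cells, 46 cells held 2 UMIs and 22 held 3. Monocyte- or macrophage-like cells with at least 3 gamma-like UMIs were 89 of 1288 in control (6.91%) and 133 of 776 in OTM (17.1%). Their intervals, 5.59% to 8.43% and 14.6% to 19.98%, did not overlap. For Cxcl9 and Cxcl10 together such cells were 4.04% (3.03% to 5.26%) and 10.8% (8.73% to 13.2%). For the Gbp genes they were 1.48% (0.890% to 2.29%) and 1.80% (0.990% to 3.01%), with overlapping intervals. In neutrophil-like cells the gamma-like shares were 0.989% (0.453% to 1.87%) in control and 2.77% (1.44% to 4.79%) in OTM, with overlapping intervals.

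The other members, which were not used to choose the Ifit and Isg15-high cells, were higher in them as a sum, by a larger ratio in control than in OTM. Levels in these cells were compared with those in cells of the same library and class without an Ifit or Isg15 UMI after thinning, called cells with none. The levels themselves came from unthinned counts, and part of the cells with none held such a UMI before thinning. In monocyte- or macrophage-like cells, 525 of 1288 control cells held one before and 313 after thinning, and 496 and 250 of 776 OTM cells did. In neutrophil-like cells these were 354 and 273 of 910 control and 213 and 134 of 433 OTM cells. Such cells were thus a larger part of the cells with none in OTM than in control in both classes. Their part in the ratios below was not tested. In control neutrophil-like cells (103 high cells and 637 with none), the other type I-like members together were at 10463 against 1663 CPM, a ratio of 6.29 (5.99 to 6.60), and in OTM (36 and 299 cells) at 3960 against 2364 CPM, a ratio of 1.67 (1.53 to 1.84). In control monocyte- or macrophage-like cells (49 and 975 cells) they were at 10541 against 3405 CPM, a ratio of 3.10 (2.97 to 3.22), and in OTM (29 and 526 cells) at 4806 against 3635 CPM, a ratio of 1.32 (1.24 to 1.41). Ifi27l2a supplied most UMIs of these sums. Its own ratios were 6.44 in control and 1.37 in OTM neutrophil-like cells, and 2.35 and 1.14 in monocyte- or macrophage-like cells. Rsad2 had the largest ratio in 3 of these 4 groups, with 64.0 against 9.23 CPM in OTM monocyte- or macrophage-like cells, a ratio of 6.94 (3.38 to 13.4), and 260 against 10.8 CPM in control ones, and in control neutrophil-like cells its 18.8 (13.4 to 26.6) came after the 21.5 (9.76 to 52.1) of Oasl1. Of the members with at least 20 UMIs, 30 of 34 in control and 7 of 29 in OTM monocyte- or macrophage-like cells were at least 2 times as high in the high cells, and 22 of 26 and 13 of 23 in neutrophil-like cells. The share over all genes was not computed for this comparison, so these counts cannot show whether the members stood apart from other genes. High cells were also spread unevenly over clusters, making up 16.4%, 8.57% and 0% of the control neutrophil-like clusters. In OTM, 11 of these 29 and 12 of these 23 members had intervals above 1, and the lowest ratios, whose intervals held 1, were those of Irf9 at 0.499 (0.0594 to 1.87) in monocyte- or macrophage-like and Bst2 at 0.515 (0.164 to 1.24) in neutrophil-like cells. High cells and cells with none had median UMI numbers of 2607 and 2666 in control neutrophil-like, 3024.5 and 3315 in OTM neutrophil-like, 4954 and 4310 in control monocyte- or macrophage-like and 7463 and 7276 in OTM monocyte- or macrophage-like cells. The groups are small in OTM, and the differences of these ratios between the libraries were not tested.

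The gamma-like sum was higher in Ifit and Isg15-high cells in 3 of the 4 groups. In neutrophil-like cells its ratio over cells with none was 4.18 (3.17 to 5.48) in control and 1.91 (1.44 to 2.51) in OTM. In control monocyte- or macrophage-like cells it was at 1376 CPM in high cells and 335 CPM in cells with none, a ratio of 4.11 (3.66 to 4.61). In OTM monocyte- or macrophage-like cells the ratio was 1.08 (0.905 to 1.28), from 694 and 643 CPM, and its interval held 1. Cxcl9 was at 359 CPM (94 UMIs) in the control high cells of this class and 32.4 CPM (156 UMIs) in its control cells with none. As given above, the Cxcl9 UMIs of this class came from few cells. Cxcl9 and Cxcl10 supplied 223 of the 360 gamma-like UMIs of these high cells. Of the 49 high cells, 17 lay in the MHC class II-led control cluster, which held most Cxcl9 UMIs. Among the high cells themselves, 65.0% of control and 41.7% of OTM neutrophil-like cells, and 44.9% of control and 17.2% of OTM monocyte- or macrophage-like cells, held a UMI of an Ifit gene besides Isg15. The intervals were 30.7% to 59.8% and 5.85% to 35.8% in monocyte- or macrophage-like cells, and they overlapped.

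**Figure D5:**
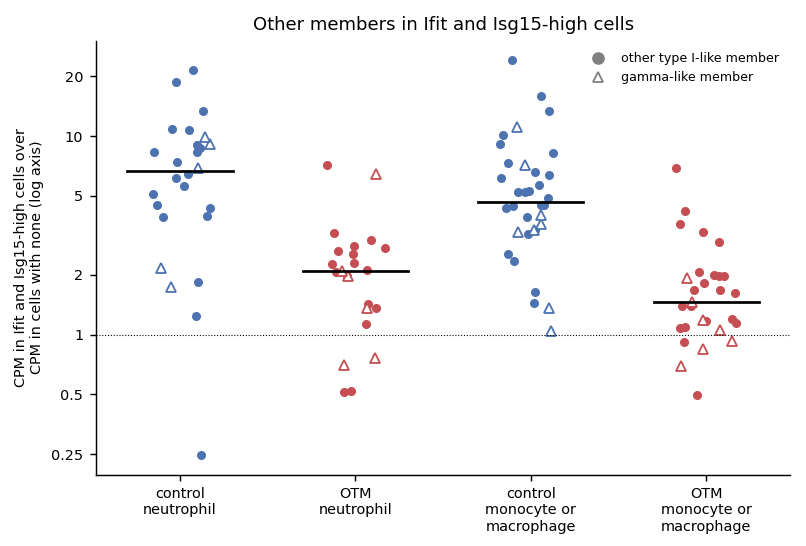
Ratio of the CPM of each other member in Ifit and Isg15-high cells (at least 3 UMIs after thinning) over that in cells with none after thinning (log axis). Members with at least 20 UMIs over both kinds of cells are shown. Filled circles are type I-like and open triangles gamma-like members, and the black bars are medians. The medians were 6.69 in control and 2.08 in OTM neutrophil-like cells, and 4.68 and 1.47 in monocyte- or macrophage-like cells.

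Outside the members, the genes of interferon signalling gave no sign of the ligands apart from Ifnb1. Ifnb1, which encodes interferon beta, had 11 control and 31 OTM UMIs in monocyte- or macrophage-like cells, 1.72 and 5.54 CPM, a ratio of 3.22 (1.58 to 7.11). No UMI of Ifng, Ifna1, Ifna2, Ifna4, Ifnl2 or Ifnl3 was found in either class of either library, and 3 UMIs, taken as the limit of a count of 0, would be 1.59 CPM in the shallowest group, the OTM neutrophil-like cells. The receptor genes were higher in OTM neutrophil-like cells, with ratios of 1.91 (1.43 to 2.57) for Ifnar1, 1.48 (1.21 to 1.80) for Ifnar2, 1.70 (1.43 to 2.02) for Ifngr1 and 1.49 (1.14 to 1.94) for Ifngr2, while in monocyte- or macrophage-like cells they lay between 0.946 and 1.24. Of 16 signalling genes with enough UMIs, 1 was past the fold upward (2.7% of all genes were) and 0 downward in monocyte- or macrophage-like cells. Of 15 in neutrophil-like cells, 3 were past it upward (8.33% of all genes were) and 0 downward. Among genes that sense nucleic acids or relay the signal toward interferon, none of 13 was past the fold in monocyte- or macrophage-like cells (10.4% of all genes were). In neutrophil-like cells 4 of 10 were past it upward (8.33% of all genes). In control, the signalling and sensing sums were 1.92 (1.84 to 2.01) and 2.74 (2.52 to 2.99) times as high in monocyte- or macrophage-like as in neutrophil-like cells. Summed monocyte or macrophage markers of neutrophil-like cells were higher in OTM, as given above (1594 and 4490 CPM). Their part in the receptor, signalling and sensing ratios was not tested.

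A further list of 66 interferon-stimulated genes outside the members had 54 genes with enough UMIs in neutrophil-like cells, of which 8 were past the fold upward and 1 downward (16.7%, against 16.3% of all genes), and 62 in monocyte- or macrophage-like cells, with 4 upward and 6 downward (16.1%, against 10.4%). Ifitm1, a membrane protein that blocks viral entry, was at 84.1 CPM in control and 721 CPM in OTM neutrophil-like cells, a ratio of 8.58 (7.50 to 9.83), and at 54.5 and 207 CPM in monocyte- or macrophage-like cells, a ratio of 3.79 (3.36 to 4.28). Ms4a6d had ratios of 7.12 (5.64 to 9.07) and 2.97 (2.80 to 3.16), and Slfn2 was at 604 CPM in control and 1353 CPM in OTM monocyte- or macrophage-like cells, a ratio of 2.24 (2.15 to 2.33). Serpina3g stood on opposite sides, with 4 control and 28 OTM UMIs in neutrophil-like cells and 89 and 14 in monocyte- or macrophage-like cells. The lowest ratios were those of Xaf1, 0.426 (0.263 to 0.668), Irgm1 and Helz2 in neutrophil-like cells, and of Serpina3g, 0.180 (0.0946 to 0.318), Irgm2 and Ciita in monocyte- or macrophage-like cells.

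Over the 18 clusters of both libraries, the genes whose log2 CPM was most like that of the Ifit and Isg15 sum were given by Pearson's r, as a description, since clusters of 1 library share its depth and its mice. Of 5336 genes with at least 200 UMIs, Kctd12 came first (0.925), followed by the members Rtp4 (0.924) and Rsad2 (0.912) and by Slc15a3 (0.909), Basp1 (0.900) and Dusp1 (0.899). Of the first 50 genes, 4 were members. Among the members with that many UMIs, Bst2 had the lowest value (0.145), and Cxcl10 (0.279) and Cxcl9 (0.299) were the next.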

How the data were processed

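Cells of alveolar bone were profiled with 10x Genomics 3′ v2 chemistry, and raw UMI counts per gene and barcode, made by the authors with Cell Ranger 3.0.0 on mm10, were deposited for 1 control and 1 OTM library. Barcodes were kept with at least 200 genes per 1000 UMIs, a literal reading of the methods, and at most 5% mitochondrial UMIs. The other reading, at least 200 genes per cell, was run as an alternative and kept 2835 of 2863 control and 2052 of 2058 OTM barcodes. Clusters were built within 1 library at a time by Seurat 5.3.0 in R 4.3.3 (12 and 8 principal components, resolution 0.6, seed 42), without member and related interferon genes among the variable genes. Clusters were named from marker lists, with 3 markers needed. A control cluster of 169 cells with mixed markers stayed unnamed. Scrublet in scanpy 1.11.5 called 103 control (4.21%) and 12 OTM cells (0.956%) doublets, which were kept. UMIs were summed per class and given as CPM with Poisson, conditional binomial or Clopper-Pearson 95% intervals (Python 3.11.15, numpy 2.4.6, scipy 1.17.1, pandas 2.3.3), and 0.5 UMIs were added before a median log2 ratio was taken. The likeness over clusters used log2 values with 10 CPM added. The ratio scripts were tested on simulated data. No test between conditions was possible with 1 library each. Alternatives were another cell filter, totals without abundant genes, TMM scaling by edgeR 4.0.16, resolutions 0.3 and 1, other class assignments, doublet removal, cell means, thinning, and other folds and UMI minimums. All members were accounted for. Genes outside them were named by the 3 largest and 3 smallest ratios of a class, by signalling role or by the 10 highest correlations. The members and lists were chosen with earlier results of these data known. Positions are from GENCODE vM21 (GRCm38). 1 gene of the signalling list is not reported here.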

Additional observations from a re-analysis of the deposited data

Results flagged for a closer look

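In 3 cases the ratio of OTM over control lay above 1 in 1 class and below 1 in the other, with both counting intervals clear of 1. The Ifit and Isg15 sum had a ratio of 0.820 (0.746 to 0.900) in neutrophil-like and 1.21 (1.13 to 1.30) in monocyte- or macrophage-like cells. Isg15 alone had 0.894 (0.806 to 0.992) and 1.35 (1.25 to 1.46). Ly6a had the opposite order, with 4.82 (3.29 to 7.20) in neutrophil-like and 0.737 (0.643 to 0.844) in monocyte- or macrophage-like cells. With 1 library per condition the difference between the classes was not tested in any of the 3. On the log2 scale, the ratio of the Ifit and Isg15 sum differed between the classes by 0.56 (0.39 to 0.73, counting error only).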

How the results depend on the processing

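With 1 library per condition no replicate could be left out, and no limit set by mice can be read from these values. No paired analysis was possible because each condition had 1 library. Of the main results under the alternatives, 74 values moved by less than their counting interval, 44 moved by more and 2 were on the other side of 1, and the cause was not tested. The OTM over control ratio of the Ifit and Isg15 sum in monocyte- or macrophage-like cells was 0.576 without Isg15, and otherwise 1.35 with TMM scaling, 1.11 with at least 200 genes per cell, 1.39 with all variable genes, 1.08 at resolution 1 and 1.07 when the unnamed control cluster was added, an alternative chosen after seeing the data. In neutrophil-like cells it was 0.669 with at least 200 genes per cell, 0.696 with all variable genes and 0.544 without Isg15. The gamma-like ratio in monocyte- or macrophage-like cells was 1.95 with TMM scaling, 1.48 with at least 200 genes per cell, 1.66 after thinning and 1.13 without Cxcl10. In neutrophil-like cells it was 1.55 with at least 200 genes per cell, 1.76 with classes from own markers, 1.80 with all variable genes and 1.956 after thinning.

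Between the classes of the OTM library, the Ifit and Isg15 ratio was 1.25 with at least 200 genes per cell, 0.586 with TMM scaling, 0.749 as a mean over cells and 0.508 without Isg15. In control it was 0.352 with TMM scaling, 0.755 with at least 200 genes per cell, 0.434 with all variable genes, 0.511 after thinning, 0.487 as a mean over cells, 0.497 at resolution 0.3, 0.628 at resolution 1, 0.494 with totals without abundant genes, 0.628 with the unnamed cluster added and 0.480 without Isg15. The gamma-like ratio in OTM was 2.00 with TMM scaling, 4.53 with at least 200 genes per cell, 3.15 with own markers, 3.71 after thinning, 3.52 as a mean over cells and 1.64 without Cxcl10. In control it was 2.41 with TMM scaling, 4.76 with at least 200 genes per cell, 3.11 with own markers, 2.93 with all variable genes, 4.38 after thinning, 4.53 as a mean over cells, 3.38 at resolution 0.3, 3.38 with totals without abundant genes and 3.19 without Cxcl10.

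Of the other values, 11 that had been past the fold (members) or had an interval clear of 1 (sums) were on the other side of 1, and so were 85 that had not. Of the 11, those with TMM scaling were the OTM over control ratio of all members in monocyte- or macrophage-like cells (1.07) and the ratios between classes of the antiviral effectors (0.835 in control, 0.9504 in OTM), the type I factors (0.996 in control), the Slfn, Ifi200 and surface genes (0.852 and 0.996), the type I-like members (0.801 and 0.970) and all members (0.847 in control). After thinning, Cmpk2 was at 2.23 between the classes of the OTM library. Without Ifi27l2a, also chosen after seeing the data, the OTM over control ratio of the type I-like members in monocyte- or macrophage-like cells was 1.06. All 10 members past the fold in neutrophil-like and all 12 in monocyte- or macrophage-like cells kept their side of 1 under the 11 alternatives where they had a value, and 4 and 6 of them stayed past the fold in each.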

Other observations

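The clusters outside the 2 classes also differed in these genes. The unnamed control cluster of 169 cells, led by Eno3, Fabp4, Cd36, Ace and Treml4, held S100a8 at 67679 CPM and Csf1r at 253 CPM, and its Ifit and Isg15 sum was 542 CPM (489 to 598), near that of the control neutrophil-like cluster led by Gm5483. Ifit and Isg15-high cells made up 14.8% (9.81% to 21.1%) of it. The control B cell-like cluster (41 cells) had 91.0 CPM (54.8 to 142) of the Ifit and Isg15 sum and no UMI of Ifit3. Granulocyte progenitor-like cells had 37.2 CPM (19.2 to 65.0) in control and 38.5 CPM (19.9 to 67.3) in OTM, and their gamma-like sums were 133 CPM (96.5 to 180) and 112 CPM (78.3 to 156). Ifi27l2a was at 80.6 CPM in control and 161 CPM in OTM progenitor-like cells, far under its level in the 2 classes.

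An ISRE in the 250 bases upstream was found both in members past the fold upward and in members past it downward. In monocyte- or macrophage-like cells, 3 of 7 lower members with a matched promoter had one (Ifit3, Ifit3b and Stat2), as did 2 of 4 higher members (Cxcl10 and Gbp5) and 12 of 21 members within the fold.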
